A study of Rattus norvegicus with 12 samples.

Results

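Collagens are the rod-shaped proteins of the extracellular matrix, built from chains wound into a triple helix. All genes whose name is Col, a number, the letter a and a number were taken from the count table of the rat central amygdala (CeA), which gave 44 of 37209 genes. By the class of the protein, 11 encode fibrillar chains, 6 encode the type IV chains of basement membranes, 9 encode FACIT chains (fibril-associated collagens with interrupted triple helices) and 18 encode other collagens. Poly-A RNA was sequenced from CeA punches of 12 wild-type male Sprague Dawley rats aged 14 to 16 weeks, with 1 library per rat. The CIE group (6 rats, numbered 1 to 6) was exposed to chronic intermittent ethanol vapor and taken immediately after the last exposure. The Control group (6 rats, numbered 7 to 12) breathed air only. The punches are bulk tissue, so fewer cells of a type and less RNA per cell cannot be told apart. Because the rat numbers follow the groups, anything tied to their order and the exposure cannot be told apart either.

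Fibrillar collagens assemble into the cable-like fibrils of meninges and of the outer coat of larger vessels. Type IV collagen forms the flexible sheet under endothelial cells and around pericytes, and chains alpha 1 and alpha 2 make up its most widespread form. FACIT collagens sit on the surface of fibrils. The other collagens include the beaded filaments of type VI, the multiplexins of vascular basement membranes, the transmembrane collagens and the networks of types VIII and X. In the brain, the parenchyma has little fibrillar collagen, and most collagen RNA of the vessel wall comes from fibroblasts, mural cells and endothelial cells.

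Type IV genes lie in head-to-head pairs, so that partner chains are read outward from a common stretch of DNA. These windows are shown because the ratios of the partner chains differed between the groups. The sequences are RefSeq promoter windows of the rat assembly GRCr8, which run from 250 bases before to 50 bases after each gene start, and the counts themselves were made on Rnor_6.0. The *Col4a1* window is chr16:84885347-84885646 on the plus strand and the *Col4a2* window is chr16:84885471-84885770 on the minus strand. Their starts are 77 bases apart, and the 176 bases in capitals are the same stretch of DNA read on opposite strands. The *Col4a3* window (chr9:91323740-91324039, plus strand) and the *Col4a4* window (chr9:91323528-91323827, minus strand) share the 88 bases in capitals, and their starts are 413 bases apart. *Col4a5* and *Col4a6* also lie head to head, but their starts are 1415 bases apart. Their windows share 0 bases and are not shown. Each sequence is given 5′ to 3′ on the strand of its gene.
Col4a1: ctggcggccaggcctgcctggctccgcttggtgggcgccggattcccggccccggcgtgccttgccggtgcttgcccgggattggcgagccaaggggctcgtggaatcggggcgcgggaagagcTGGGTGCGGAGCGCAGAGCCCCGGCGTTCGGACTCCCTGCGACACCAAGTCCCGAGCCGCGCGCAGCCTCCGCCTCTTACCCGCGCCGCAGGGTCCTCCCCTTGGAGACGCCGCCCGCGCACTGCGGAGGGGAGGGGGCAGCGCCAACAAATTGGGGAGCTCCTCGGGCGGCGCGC
Col4a2: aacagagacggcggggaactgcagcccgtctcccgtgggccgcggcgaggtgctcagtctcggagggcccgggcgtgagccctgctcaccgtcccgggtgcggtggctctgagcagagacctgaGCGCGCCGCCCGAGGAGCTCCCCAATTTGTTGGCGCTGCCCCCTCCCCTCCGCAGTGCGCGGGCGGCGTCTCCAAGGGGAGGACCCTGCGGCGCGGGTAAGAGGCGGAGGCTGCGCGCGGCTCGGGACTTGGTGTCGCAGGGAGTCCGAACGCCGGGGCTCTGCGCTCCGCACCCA
Col4a3: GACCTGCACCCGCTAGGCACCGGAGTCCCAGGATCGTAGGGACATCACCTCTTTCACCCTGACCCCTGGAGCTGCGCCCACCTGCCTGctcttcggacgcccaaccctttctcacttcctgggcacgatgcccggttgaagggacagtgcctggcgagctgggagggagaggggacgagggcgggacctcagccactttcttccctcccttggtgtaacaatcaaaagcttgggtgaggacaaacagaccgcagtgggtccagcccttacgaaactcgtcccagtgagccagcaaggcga
Col4a4: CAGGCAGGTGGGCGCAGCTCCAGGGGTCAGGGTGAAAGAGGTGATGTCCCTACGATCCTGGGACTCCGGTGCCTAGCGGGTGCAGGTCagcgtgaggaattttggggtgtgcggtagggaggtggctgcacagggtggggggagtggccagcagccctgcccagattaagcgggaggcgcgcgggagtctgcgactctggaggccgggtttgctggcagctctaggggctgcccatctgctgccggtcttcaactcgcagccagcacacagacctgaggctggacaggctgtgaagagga

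Windows were found for 35 of the 44 collagen genes, and their median GC content was 59.7%, beside 51.7% over all 33469 windows of the table. The GC box (GGGCGG, either strand) was present in 19 of 35 collagen windows (54.3%) and in 33.1% of all windows. The CCAAT box (CCAAT, either strand) was present in 11 collagen windows (31.4%), beside 37.5% of all windows, and the TATA box (TATAAA, either strand) in 4 (11.4%), beside 14.2%. The *Col4a1* window held 2 GC boxes and 2 CCAAT boxes, and the *Col4a2* window held 2 GC boxes and 1 CCAAT box. A CCAAT box and both GC boxes of each window lie in the stretch that the 2 windows share, so these are the same letters counted from either side. Neither window held TATAAA. The *Col4a3* window held 1 GC box and the *Col4a4* window held none of these motifs.

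Of the 44 genes, 43 passed the filter on low counts and were tested. *Col10a1*, the network collagen of growth-plate cartilage, had 0 counts in every rat. If its reads were counted at all, this allows up to 0.0314 to 0.0768 CPM at 3 counts per library (CPM is the count scaled to the size of the library). Library totals ran from 61978486 to 78441691 counts for the CIE rats and from 39082548 to 95647601 for the Control rats. In the comparison of the CIE and Control groups by edgeR's quasi-likelihood F test, 4 collagen genes were lower and 0 were higher at 5% FDR, where 0.258% and 0.105% of all 20944 genes tested were lower and higher. The count of lower genes was 8 with DESeq2 and 7 with limma-voom, beside 0.685% and 0.731% of all genes, and 0 were higher with DESeq2, beside 0.495%. At a nominal p value below 0.05, 13 collagen genes passed, beside 8.31% of all genes, of which 12 were lower, beside 4.31%, and 1 was higher, beside 837 of 20944. In 7 collagen genes every CIE rat lay below every Control rat, a pattern seen in 0.554% of all genes, and in 0 genes every CIE rat lay above, beside 0.339%. The median log2 fold change of the 43 genes was -0.10, and 26 of them were below 0, beside a median of 0.00 and 49.7% below 0 over all genes. The lower genes were spread over all classes, with 4 fibrillar, 3 basement membrane, 2 FACIT and 3 other genes at a nominal p value below 0.05. With library size as the only scaling, 12 were lower and 3 were higher at that threshold (*Col19a1*, *Col22a1* and *Col27a1*).

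**Figure D1:**
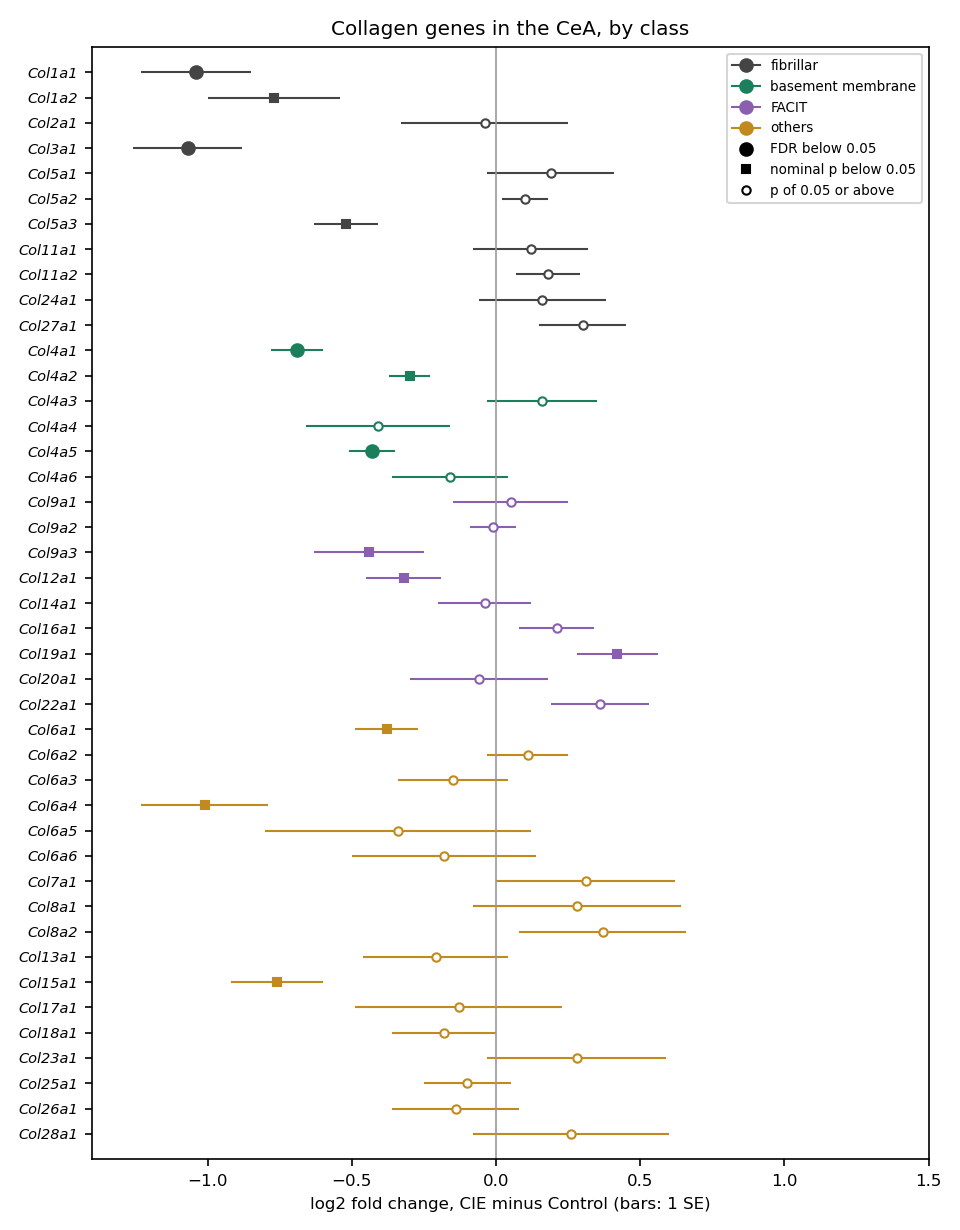
Log2 fold changes between the CIE and Control groups for the 43 collagen genes tested, ordered by class, with bars of 1 SE. Large filled circles mark an FDR below 0.05, filled squares a nominal p value below 0.05 and open circles a p value of 0.05 or above. The 4 genes with an FDR below 0.05 are *Col1a1*, *Col3a1*, *Col4a1* and *Col4a5*, all left of 0, and *Col19a1* is the only filled symbol right of 0.

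The fibrillar class was divided. *Col1a1*, *Col1a2*, *Col3a1* and *Col5a3* were lower at a nominal p value below 0.05, and 6 of the other 7 genes had log2 fold changes above 0. The median over the class was 0.10. *Col1a1* encodes the major chain of type I collagen. Its lowest, median and highest values were 7.90, 11.7 and 18.4 CPM in the CIE rats and 20.9, 23.5 and 37.1 CPM in the Control rats. The groups did not overlap, and the log2 fold change was -1.04 (SE 0.19, FDR = 0.0270). *Col3a1* encodes the only chain of type III collagen, which forms mixed fibrils with type I. It measured 6.35, 8.54 and 13.1 CPM in the CIE rats and 13.6, 18.3 and 26.9 CPM in the Control rats. Again no CIE rat reached a Control rat, and the log2 fold change was -1.07 (SE 0.19, FDR = 0.0243). For both genes CIE rat 6 was the highest of its group and Control rat 9 the highest of the other.

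These calls did not hold in every fit that left out 1 rat, and the count of calls over all genes changed in those fits too. Over all genes, 54 were lower at 5% FDR with all rats, 26 without Control rat 9 and 130 without CIE rat 6, the extremes of these fits. The FDR of *Col1a1* was below 5% in 5 of the 12 fits that left out 1 rat, and lay between 0.0528 and 0.0802 without CIE rat 1, 2, 4 or 5 or Control rat 7, 8 or 9. That of *Col3a1* was likewise below 5% in 5 fits, and lay between 0.0501 and 0.0734 without CIE rat 1, 2, 4 or 5 or Control rat 9, 11 or 12. Each log2 fold change kept its sign, between -1.19 and -0.89 for *Col1a1* and between -1.22 and -0.94 for *Col3a1*. In the fits without 1 rat, the nominal p values of the F test were at most 0.000255 for *Col1a1* and 0.000216 for *Col3a1*.

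*Col1a2*, which encodes the minor chain of type I collagen, measured 3.37 to 12.3 CPM in the CIE rats, with a median of 7.07, and 10.7 to 16.0 CPM in the Control rats. Here 5 of 6 CIE rats lay below every Control rat, and CIE rat 6 stood inside the Control range. The log2 fold change was -0.77 (SE 0.23, FDR = 0.273), and the FDR ranged from 0.0309 to 0.537 over the 18 alternative fits. *Col5a3* encodes a chain of type V collagen, the class that sits in the core of fibrils. Its values were 37.7, 50.9 and 54.1 CPM in the CIE rats and 56.7, 75.0 and 77.7 CPM in the Control rats. The groups did not overlap, with a log2 fold change of -0.52 (SE 0.11, FDR = 0.0652). Over the alternative fits its FDR ranged from 0.00386 to 0.190.

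The partner chains of *Col5a3* gave other values. *Col5a1* measured 5.05 to 14.6 CPM in the CIE rats and 5.78 to 9.10 CPM in the Control rats, with a log2 fold change of 0.19 (SE 0.22, FDR = 0.866). *Col5a2* measured 27.2 to 35.8 and 25.8 to 33.4 CPM, with a log2 fold change of 0.10 (SE 0.08, FDR = 0.819). Neither separated the groups. The type XI chains, close relatives of type V, were at 0.12 (SE 0.20, FDR = 0.918) for *Col11a1* and 0.18 (SE 0.11, FDR = 0.715) for *Col11a2*, which had the most counts of the class. The cartilage collagen *Col2a1* was at -0.04, *Col24a1* at 0.16 and *Col27a1* at 0.30 on the log2 scale, with nominal p values of 0.900, 0.462 and 0.0662.

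In the basement membrane class, 3 of 6 genes had a nominal p value below 0.05 and were lower, 2 at 5% FDR, and 5 of 6 log2 fold changes were below 0 with a median of -0.36. The summed CPM of the 6 genes was 113 to 146 in the CIE rats and 152 to 189 in the Control rats, without overlap. Most of this sum came from *Col4a1* and *Col4a2*, with means of 42.3 and 57.0 CPM in the CIE rats and 68.2 and 70.3 CPM in the Control rats. The sums of the other classes overlapped, at 231 to 318 and 276 to 349.7 CPM for fibrillar genes, 147 to 224 and 181 to 199.5 CPM for FACIT genes, and 101 to 127 and 107 to 125 CPM for other collagens. *Col4a1* measured 36.4, 41.2 and 52.7 CPM in the CIE rats and 60.3, 69.7 and 74.5 CPM in the Control rats. No CIE rat reached the Control range, and the log2 fold change was -0.69 (SE 0.09, FDR = 0.00675). Its FDR was below 5% in all 18 alternative fits, with a highest value of 0.0270. *Col4a2*, the partner chain, measured 50.6, 57.8 and 60.6 CPM in the CIE rats and 59.8, 72.4 and 77.1 CPM in the Control rats. The groups overlapped at Control rat 11, and 4 of 6 CIE rats lay below every Control rat. The log2 fold change was -0.30 (SE 0.07, FDR = 0.124), and the FDR ranged from 0.0176 to 0.306 over the alternative fits.

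The alpha 5 chain, *Col4a5*, is the gene of X-linked Alport syndrome. It measured 14.4, 16.5 and 19.3 CPM in the CIE rats and 20.1, 22.4 and 24.4 CPM in the Control rats. The groups did not overlap, with a log2 fold change of -0.43 (SE 0.08, FDR = 0.0328). This call held in 3 of the 12 fits without 1 rat, those without CIE rat 3, CIE rat 6 or Control rat 8, and the FDR lay between 0.0519 and 0.111 in the other 9. The nominal p value of the F test was at most 0.000349 in these fits. With library size only, the FDR was 0.0623. For its neighbour *Col4a6* the log2 fold change was -0.16 (SE 0.20, FDR = 0.880), with 1.90 to 3.83 CPM in the CIE rats and 2.29 to 4.09 CPM in the Control rats.

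*Col4a3* and *Col4a4* encode chains of the kidney glomerular network. *Col4a3* measured 4.98 to 10.2 CPM in the CIE rats and 4.88 to 7.46 CPM in the Control rats, with a log2 fold change of 0.16 (SE 0.19, FDR = 0.876). *Col4a4* measured 0.754, 0.960 and 2.15 CPM in the CIE rats and 1.21, 1.62 and 1.75 CPM in the Control rats. All CIE rats but rat 6 lay below every Control rat, and rat 6 lay above every Control rat, which left a log2 fold change of -0.41 (SE 0.25, FDR = 0.724).

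**Figure D2:**
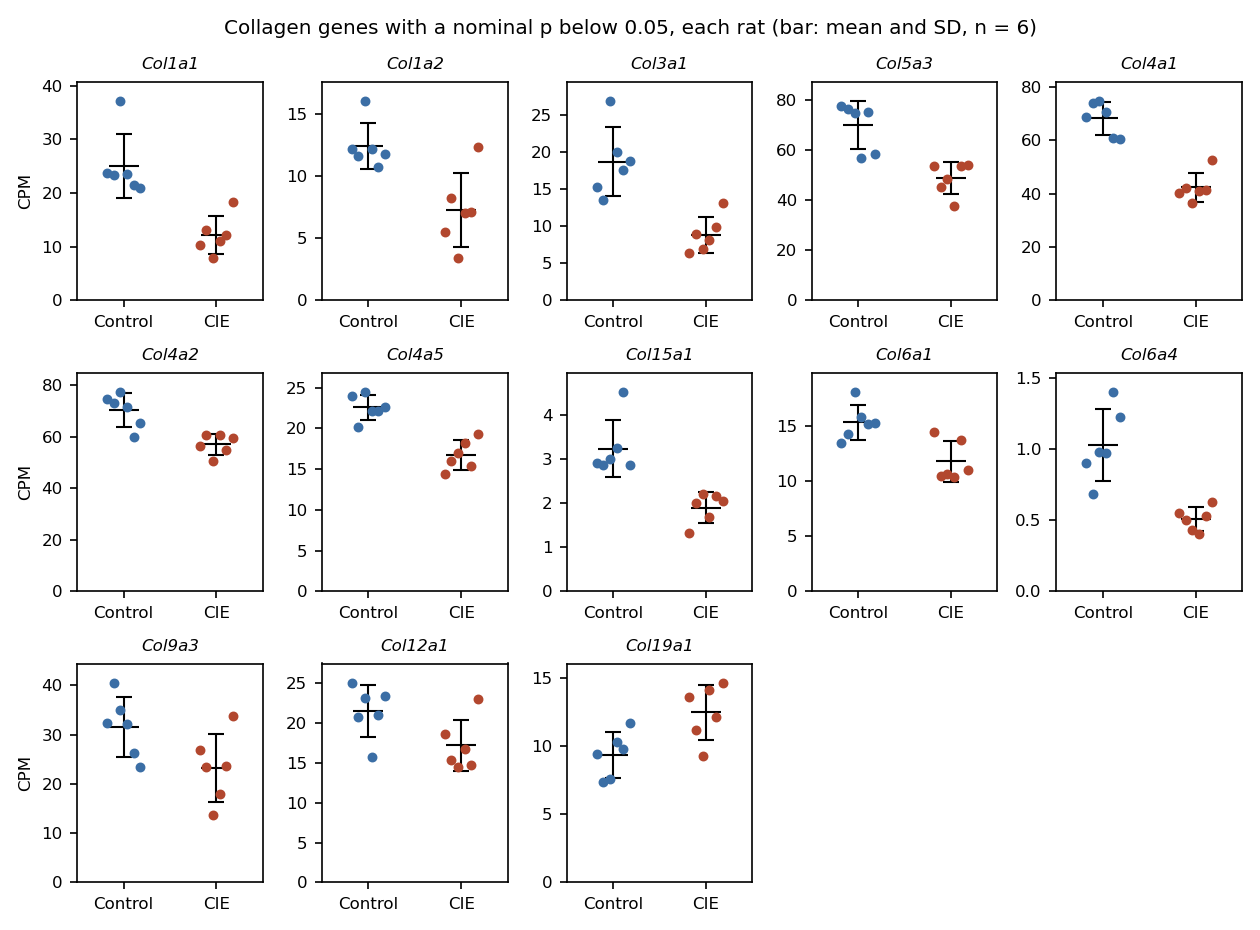
CPM of the 13 collagen genes with a nominal p value below 0.05 in each Control and CIE rat, with a bar for the mean and SD of 6 rats. In *Col1a1*, *Col3a1*, *Col5a3*, *Col4a1*, *Col4a5*, *Col15a1* and *Col6a4* the highest CIE rat lies below the lowest Control rat, and in *Col19a1* the CIE mean is the higher of the groups.

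Partner chains were then compared within each rat, since a ratio of 2 counts from the same library does not depend on how libraries are scaled. Of 13 pairs, 4 differed between the groups at an adjusted p value below 0.05 (two-sided exact permutation test over rats, Benjamini-Hochberg over the 13 pairs). The ratio of *Col4a1* to *Col4a2* was 0.674, 0.716 and 0.886 in the CIE rats and 0.921, 0.976 and 1.02 in the Control rats. The groups did not overlap, and the log2 ratio was lower by a difference of -0.39 (SE 0.06, exact permutation p = 0.00216, the smallest this design can give, adjusted p = 0.0281). The pair that shares 176 bases of promoter window therefore had counts that moved by unequal amounts. How the counting treated reads that fit more than 1 gene is not given in the sources used here, and such reads were not checked.

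The ratio of *Col4a3* to *Col4a4* had a median of 5.95 and a highest value of 9.69 in the CIE rats, and was 2.98, 4.37 and 4.57 in the Control rats. In 5 of 6 CIE rats it lay above every Control rat, and the log2 difference was 0.62 (SE 0.21, exact permutation p = 0.0108, adjusted p = 0.0492). For *Col6a1* to *Col6a2*, chains of the type VI filament, the ratio was 0.532, 0.676 and 0.812 in the CIE rats and 0.626, 0.980 and 1.16 in the Control rats, a log2 difference of -0.50 (SE 0.16, exact permutation p = 0.0130, adjusted p = 0.0492). The cartilage-type FACIT chains *Col9a2* and *Col9a3* gave ratios of 0.755, 0.938 and 1.33 in the CIE rats and 0.613, 0.750 and 0.902 in the Control rats, a log2 difference of 0.46 (SE 0.16, exact permutation p = 0.0152, adjusted p = 0.0492). These 3 pairs stood just inside the threshold and their ranges overlapped. When 1 rat was left out, between 0 and 3 pairs passed, with 0 for Control rat 8, 9, 10 or 11 and 3 for CIE rat 6. Over these fits the exact permutation p of *Col4a1* to *Col4a2* was at most 0.00433, and its adjusted p was at most 0.0563.

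The other 9 pairs did not pass. *Col1a1* to *Col1a2* differed by -0.19 on the log2 scale (SE 0.11, exact permutation p = 0.117, adjusted p = 0.253). *Col1a1* to *Col3a1*, the chains of mixed fibrils, differed by 0.03 (SE 0.13, exact permutation p = 0.846, adjusted p = 0.881). *Col3a1* to *Col4a1*, a fibrillar and a basement membrane chain paired with their earlier fold changes known, had a ratio of 0.158, 0.206 and 0.249 in the CIE rats and 0.184, 0.287 and 0.361 in the Control rats, a difference of -0.39 (SE 0.17, exact permutation p = 0.0519, adjusted p = 0.135). *Col4a5* to *Col4a6* differed by -0.26 (SE 0.19, adjusted p = 0.382 by the same exact permutation test). The other 5 pairs differed by -0.23 to 0.04, with adjusted p values from 0.521 to 0.881. Their SEs ranged from 0.22 to 0.52, so differences of that size were not detectable with these rats.

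**Figure D3:**
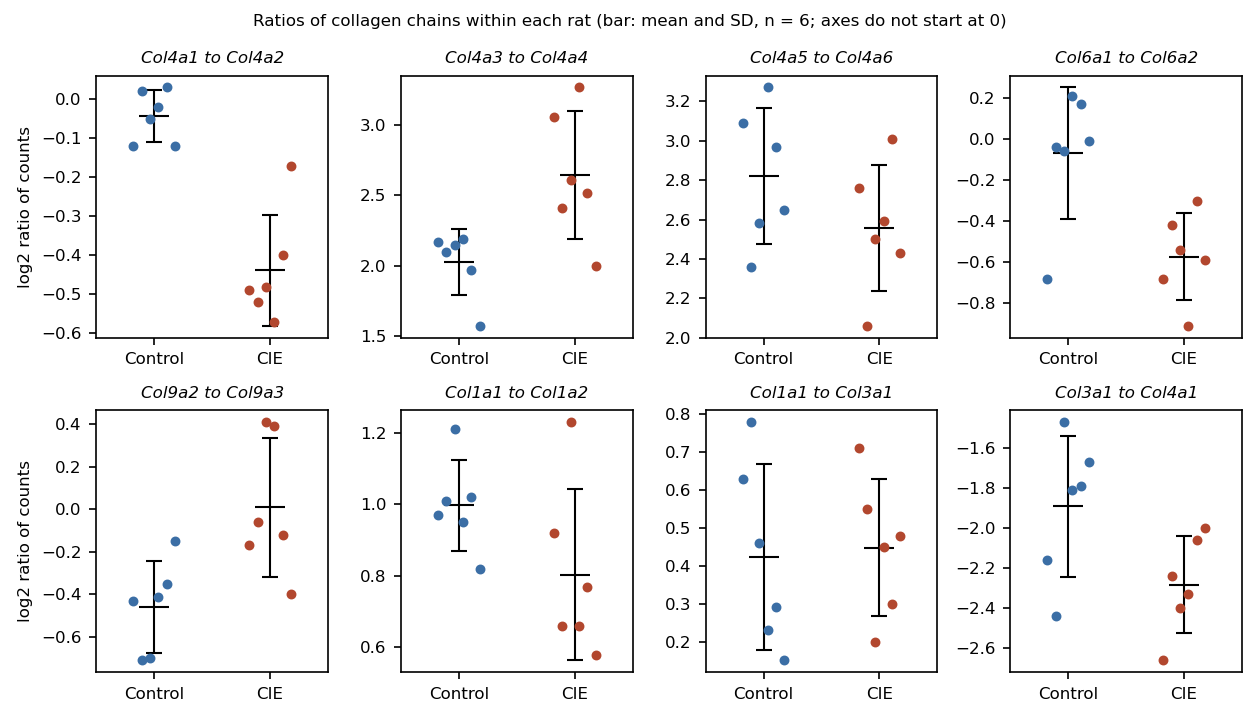
Log2 ratios of the counts of partner collagen chains in each rat for 8 of the 13 pairs, with a bar for the mean and SD of 6 rats. The axes do not start at 0. For *Col4a1* to *Col4a2* all CIE rats lie below all Control rats, while for *Col1a1* to *Col3a1* the ranges overlap.

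FACIT genes lay on both sides of 0, with a median log2 fold change of -0.01 over 9 genes and 0 genes at 5% FDR in either direction. *Col9a3* measured 13.7, 23.6 and 33.8 CPM in the CIE rats and 23.4, 32.3 and 40.4 CPM in the Control rats, with a log2 fold change of -0.44 (SE 0.19, FDR = 0.552). *Col12a1*, which encodes a collagen bound to type I fibrils, measured 14.5, 16.1 and 23.0 CPM in the CIE rats and 15.7, 22.1 and 25.0 CPM in the Control rats, with -0.32 (SE 0.13, FDR = 0.509). The ranges overlapped for both, and each nominal p was 0.05 or above in 5 of the 12 fits without 1 rat. Those were the fits without CIE rat 3 or 4 or Control rat 7, 8 or 9 for *Col9a3* (p up to 0.0881), and without CIE rat 2, 3 or 5 or Control rat 7 or 12 for *Col12a1* (p up to 0.0606).

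*Col19a1*, a FACIT gene expressed by subsets of neurons, was the collagen with a nominal p value below 0.05 in the upward direction. It measured 9.31, 12.8 and 14.6 CPM in the CIE rats and 7.36, 9.61 and 11.7 CPM in the Control rats. In 4 of 6 CIE rats it lay above every Control rat, and the log2 fold change was 0.42 (SE 0.14, FDR = 0.354). The FDR ranged from 0.0661 to 0.634 over the alternative fits. *Col22a1*, a collagen of tissue junctions, was at 0.36 (SE 0.17, FDR = 0.615), and *Col16a1* at 0.21 (SE 0.13, FDR = 0.711). *Col14a1*, the FACIT gene with the most counts, was at -0.04 (SE 0.16, FDR = 0.968), *Col9a1* at 0.05 (SE 0.20, FDR = 0.968), *Col9a2* at -0.01 (SE 0.08, FDR = 0.984) and *Col20a1* at -0.06 (SE 0.24, FDR = 0.968). The signs of *Col9a1*, *Col9a2* and *Col20a1* turned under limma-voom, to -0.01, 0.04 and 0.06, and that of *Col9a2* also with library size only, to 0.01. When 1 rat was left out, these 3 and *Col14a1* had values on both sides of 0.

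Among the 17 other collagens tested, 3 were lower and 0 higher at a nominal p value below 0.05, 0 passed 5% FDR, and the median log2 fold change was -0.14. The type VI genes, which encode microfibrils next to basement membranes, held 2 of the 3. *Col6a1* measured 10.4, 10.9 and 14.5 CPM in the CIE rats and 13.5, 15.2 and 18.1 CPM in the Control rats, with a log2 fold change of -0.38 (SE 0.11, FDR = 0.221). *Col6a4* was scarce, at 0.402, 0.516 and 0.629 CPM in the CIE rats and 0.686, 0.978 and 1.40 CPM in the Control rats. That is 27 to 51 counts against 54 to 92, and the groups did not overlap. Its log2 fold change was -1.01 (SE 0.22, FDR = 0.0765), with an FDR of 0.00338 to 0.198 over the alternative fits. *Col6a2* and *Col6a3*, which join *Col6a1* in the common form of the filament, were at 0.11 (SE 0.14, FDR = 0.883) and -0.15 (SE 0.19, FDR = 0.890). *Col6a5* and *Col6a6* were at -0.34 (SE 0.46) and -0.18 (SE 0.32), with means below 1 CPM.

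The multiplexins carry glycosaminoglycan chains and lie in vascular basement membranes. *Col15a1* measured 1.32, 2.03 and 2.21 CPM in the CIE rats and 2.86, 2.97 and 4.52 CPM in the Control rats. The groups did not overlap, and the log2 fold change was -0.76 (SE 0.16, FDR = 0.0765), with an FDR of 0.00158 to 0.203 over the alternative fits. *Col18a1*, which encodes the precursor of endostatin, measured 9.90, 14.8 and 17.3 CPM in the CIE rats and 12.5, 13.9 and 26.2 CPM in the Control rats, with -0.18 (SE 0.18, FDR = 0.856). The transmembrane collagens *Col13a1*, *Col17a1*, *Col23a1* and *Col25a1* were at -0.21, -0.13, 0.28 and -0.10 on the log2 scale, with nominal p values from 0.388 to 0.727. *Col17a1* turned to 0.01 under limma-voom. *Col25a1*, the precursor of a component of amyloid plaques, had the most counts of the class and measured 34.5 to 55.8 CPM in the CIE rats and 26.2 to 49.5 CPM in the Control rats. The anchoring fibril gene *Col7a1* (0.31), the network genes *Col8a1* (0.28) and *Col8a2* (0.37), *Col26a1* (-0.14) and *Col28a1* (0.26) had nominal p values from 0.224 to 0.544. *Col28a1* turned to -0.05 under limma-voom.

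The rats did not contribute evenly to the ranges. CIE rat 6 was the highest CIE rat in 20 of the 43 genes and the lowest in 0, while CIE rat 3 was the lowest in 16. In the Control group, rat 9 was the highest in 12 genes and rat 11 the lowest in 13. The summed CPM of all collagens was 599 in CIE rat 3 and 802 in CIE rat 6, with 745 to 840.3 in the Control rats, so the group ranges of the sum overlapped. Without CIE rat 6, 5 collagen genes were lower at 5% FDR, and without CIE rat 1, 2, 4 or 5 or Control rat 9 there was 1.

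**Figure D4:**
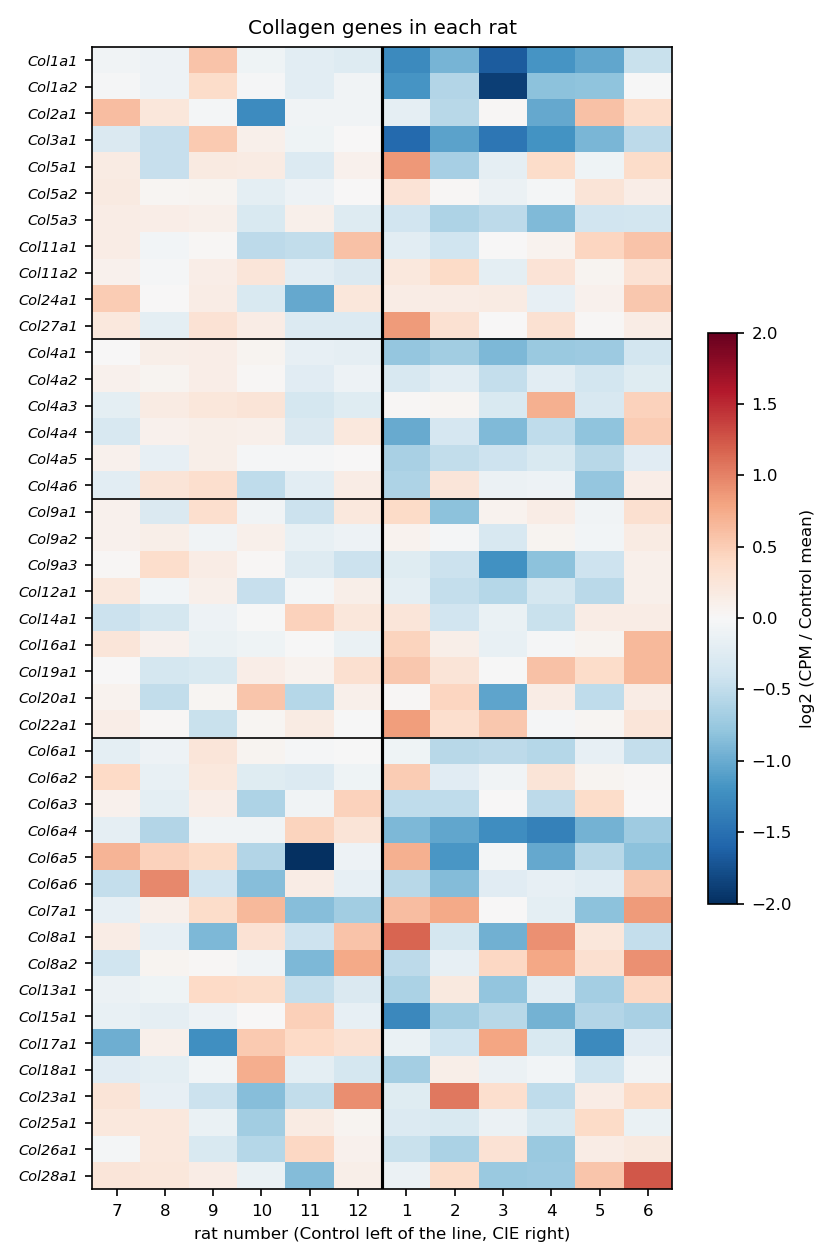
Expression of the 43 collagen genes tested in each rat, as log2 of CPM over the Control mean of the gene, with colors limited to -2 and 2, Control rats left of the line and CIE rats right. Rows are grouped by class, and the CIE columns are blue in the rows of *Col1a1*, *Col3a1*, *Col4a1*, *Col6a4* and *Col15a1*, least so in rat 6 for *Col1a1*, *Col3a1* and *Col4a1*.

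Collagen chains need a dedicated machinery. Prolyl and lysyl hydroxylases modify them in the endoplasmic reticulum, the chaperone encoded by *Serpinh1* (HSP47) guards the helix, propeptides are cleaved on secretion, and lysyl oxidases cross-link the fibrils. Of the 41 such genes tested, 8 were lower and 1 higher at a nominal p value below 0.05 (all genes: 4.31% lower and 837 of 20944 higher), 0 passed 5% FDR in either direction with edgeR, and the median log2 fold change was -0.06. With DESeq2 1 and with limma-voom 2 were lower at 5% FDR. By step, 4 of 14 modification genes were lower and 1 was higher, 2 of 6 cross-linking genes and 2 of 9 receptors were lower, and 0 of 7 cleavage genes and 0 of 5 small proteoglycans passed in either direction. *Lox*, the lysyl oxidase, measured 0.523, 0.983 and 1.54 CPM in the CIE rats and 1.63, 2.02 and 2.12 CPM in the Control rats. Its groups did not overlap, and the log2 fold change was -0.98 (SE 0.23, FDR = 0.123), with an FDR of 0.00462 to 0.269 over the alternative fits. Its relative *Loxl1* was at -0.51 (SE 0.17, FDR = 0.386).

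*Serpinh1* measured 32.9, 36.6 and 42.9 CPM in the CIE rats and 38.9, 45.7 and 46.9 CPM in the Control rats, with a log2 fold change of -0.29 (SE 0.07, FDR = 0.153). The catalytic subunits of prolyl 4-hydroxylase had opposite signs. *P4ha1* was at -0.18 (SE 0.06, FDR = 0.416) and *P4ha2* at 0.30 (SE 0.09, FDR = 0.327). Their shared beta subunit *P4hb* was at -0.16 (FDR = 0.554) and the prolyl isomerase *Ppib* at -0.16 (FDR = 0.596). Among receptors, the integrin subunit *Itgb1* was at -0.18 (FDR = 0.484) and the collagen uptake receptor *Mrc2* at -0.27 (FDR = 0.574). With library size only, *P4hb*, *Ppib*, *Itgb1* and *Mrc2* had nominal p values of 0.05 or above, and *Ppib* also with DESeq2 and with the DESeq2 size factors in edgeR. When 1 rat was left out, *P4hb* and *Ppib* kept a nominal p value below 0.05 only without CIE rat 3 or 5 or Control rat 7. *Mrc2* lost it without CIE rat 1, 2, 4 or 5 or Control rat 7, 8 or 12, and *Itgb1* lost it without CIE rat 3 or Control rat 8.

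Some markers of the cells that make collagen were also lower in the CIE rats, and others were not. Fibroblast markers summed to 129.6 to 187 CPM in the CIE rats and 189.6 to 220.5 CPM in the Control rats, without overlap. Without *Pdgfra*, which oligodendrocyte precursors also express, the sums were 56.1 to 82.9 and 90.1 to 117 CPM. *Igf2*, the most abundant gene left, made up 17.2 to 33.4 CPM in the CIE rats and 36.4 to 67.9 CPM in the Control rats. Sums without *Igf2* were not taken. Of the 13 fibroblast genes, 5 were lower and 0 higher at a nominal p value below 0.05. This and the marker counts that follow stand beside 4.31% lower and 837 of 20944 higher over all genes. *Igf2* was at -1.02 (SE 0.17, FDR = 0.0207). The other lower genes were *Foxd1*, *Slc13a3*, *Slc6a13* and *Foxc1*, at -0.96, -0.62, -0.52 and -0.36, with FDRs from 0.107 to 0.549. In contrast, *Dcn*, a proteoglycan gene of the same cells, was at -0.01 (SE 0.15, FDR = 0.987). *Tbx18*, *Islr* and *Mgp* were at -0.01, -0.03 and 0.06, and *Twist1* was at 0.58 (FDR = 0.774). Over the fibroblast list, 11 log2 fold changes were below 0 and 2 above. Endothelial markers summed to 296 to 419.9 CPM in the CIE rats and 324 to 411 CPM in the Control rats, with 4 of 14 lower and 1 higher. For mural cells the sums were 182 to 287 and 224 to 256 CPM, with 5 of 11 lower and 0 higher. Over the mural list, 7 log2 fold changes were below 0 and 4 above. They ran from *Kcnj8* at -0.96 (SE 0.18, FDR = 0.0300) to *Des* at 0.35 (SE 0.21, FDR = 0.711). Without *Cspg4*, the most abundant mural gene, the sums still overlapped, at 143 to 228 CPM (median 159.9) in the CIE rats and 181 to 207 CPM (median 195) in the Control rats. *Myh11* of smooth muscle and *Ttr* and *Kcnj13* of the choroid plexus were listed at 0 in every rat. The annotation used for counting is not given, so a 0 in every rat need not mean that the RNA was absent. CIE rat 6 had the highest endothelial, mural and fibroblast sums of the CIE group, and also the highest oligodendrocyte and astrocyte sums (13866 and 2836 CPM). Its neuronal and central amygdala sums (5141 and 576 CPM) were the lowest of that group. The part of these cell types in the collagen results was not tested.

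Other marker lists also varied. Oligodendrocyte markers summed to 5718 to 13866 CPM in the CIE rats and 8759 to 16399 CPM in the Control rats, with 9 of 10 genes lower. Erythroid markers summed to 4.28 to 10.2 and 12.4 to 21.4 CPM, without overlap, with 3 of 5 lower. Neuronal markers covered 5141 to 5827 and 5202 to 5854 CPM, with 1 of 10 lower. Astrocyte markers covered 2368 to 2836 and 2431 to 2766 CPM, with 2 of 9 lower and 1 higher. Central amygdala markers were present in every library, at 576 to 1836 and 671 to 2301 CPM, with 2 of 9 lower. *Penk* made up 57.8% of this sum, and without it the sums were 306 to 615 and 405 to 647 CPM. Cortical glutamatergic markers reached 458 CPM in the CIE rats and 189.8 CPM in the Control rats, and striatal projection neuron markers 3185 and 3527 CPM, with lowest sums of 48.1 and 49.4 CPM and of 439.8 and 218 CPM. The highest cortical sums were those of CIE rats 1, 4 and 2 (458, 322 and 273 CPM) and Control rat 10 (189.8 CPM). The highest striatal sums were those of Control rat 10 (3527 CPM) and CIE rats 2 and 4 (3185 and 1445 CPM). *Penk* was also highest in these rats (1658, 1267 and 1124 CPM), so the central amygdala sum is not a measure of central amygdala tissue alone. Of the genes in these lists, 2 of 7 cortical and 0 of 7 striatal genes were higher at a nominal p value below 0.05, beside 837 of 20944 over all genes. Choroid plexus markers summed to 2.48 to 6.06 and 2.32 to 8.04 CPM, with 0 of 4 tested genes past that threshold. The part of these marker lists in the collagen values was likewise not tested.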

How the data were processed

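The deposited values are raw counts per gene. The authors sequenced poly-A RNA from CeA punches, aligned reads with BWA (build Rnor_6.0), used HTSeq for counting and DESeq2 1.26 for testing. Gene annotation and the strand and overlap settings are not given in the sources used here. Groups came from the treatment label, because all 12 sample titles end in CIE.

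Counts were fitted in R 4.3.3 with edgeR 4.0.16 (TMM, filterByExpr, quasi-likelihood F test, two-sided, no covariates) over 20944 genes. FDR is the Benjamini-Hochberg adjusted p over these genes. CPM uses TMM library sizes and is not corrected for gene length, so the gene with the most counts in a class, which was used only to choose named genes, need not be the most expressed. Replicate pairs differed by 17.5 to 215 times the Poisson variance. Each library is a different rat. Chain ratios used a pseudocount of 0.5, at least 10 counts in every rat and exact permutation tests. The code was tested on simulated counts. Alternatives were DESeq2 1.42.0, limma 3.58.1 voom with quality weights, other scalings and filters, leaving out each rat, a ratio pseudocount of 5 and linear ratios. The marker sums without their most abundant gene were added after the values were seen.

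Named genes were collagens with a nominal p below 0.05, those the study names, both genes of each pair, the member of each class with the most counts, and processing genes with a nominal p below 0.05. The remaining members were added to account for each. Members and lists were chosen with earlier results of these data known. Of 47 collagen-processing names, 42 were matched. Depth limits the scarce genes, and the floor of 3 counts covers counting error only.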

Additional observations from a re-analysis of the deposited data

Results flagged for a closer look

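Among 112 groups of 6 values examined, each a gene's CPM or a chain ratio within a group, 11 held a rat set apart from the other 5 by Dixon's criterion at a critical value of 0.625. Chance marks about 5% of groups. In the Control group, rat 9 stood apart in 3 genes. It had 37.1 CPM of *Col1a1*, where the other Control rats had 20.9 to 23.8, and 16.0 CPM of *Col1a2*, where they had 10.7 to 12.2. Its *Col22a1* value was the lowest, at 1.34 CPM beside 1.82 to 2.04. Control rat 11 had 4.52 CPM of *Col15a1*, where the others had 2.86 to 3.25, and Control rat 10 had 26.2 CPM of *Col18a1*, where they had 12.5 to 15.2. In the CIE group, rat 6 had 52.7 CPM of *Col4a1* beside 36.4 to 42.2, and 2.15 CPM of *Col4a4* beside 0.754 to 1.20. CIE rat 1 had 35.5 CPM of *Col27a1* beside 19.8 to 24.4. CIE rat 5 had 55.8 CPM of *Col25a1* beside 34.5 to 39.3. The chain ratios were examined with the pseudocount and on the linear scale. CIE rat 1 had a *Col8a1* to *Col8a2* ratio of 2.44 beside 0.292 to 0.842 in the other CIE rats, and Control rat 12 had a *Col11a1* to *Col11a2* ratio of 0.482 beside 0.155 to 0.276. On the log2 scale used in the tests, these were 1.29 beside -1.78 to -0.25 and -1.05 beside -2.69 to -1.86, which falls short of the criterion. The values of *Col1a1* in Control rat 9 and of *Col4a1* in CIE rat 6 belong to genes with an FDR below 5%. Without these rats the log2 fold change of *Col1a1* was -0.89 and that of *Col4a1* was -0.76.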

How the results depend on the processing

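No paired analysis was possible because the rats carry the numbers 1 to 12 and no number is shared between the groups. The 4 collagen genes lower at 5% FDR became 8 with DESeq2 and 7 with limma-voom, and 1 to 5 without 1 rat (1 without CIE rat 1, 2, 4 or 5 or Control rat 9, 2 without Control rat 7, 11 or 12, and 5 without CIE rat 6). None was higher at 5% FDR in any fit. At a nominal p value below 0.05, the 1 higher collagen gene became 3 with library size only, 2 with DESeq2, 3 with limma-voom and 1 to 4 without 1 rat (4 without CIE rat 3), and the 12 lower ones ranged from 10 to 13 without 1 rat. Of the processing genes, the 8 lower ones became 4 with library size only, 13 with limma-voom and 4 to 12 without 1 rat (4 without Control rat 8, 12 without CIE rat 6), the 1 higher one became 2 with limma-voom and 1 to 3 without 1 rat (3 without CIE rat 2), and the 0 at 5% FDR became 1 with DESeq2, 2 with limma-voom and 0 to 1 without 1 rat. The 4 chain pairs past 5% became 0 to 3 without 1 rat, 0 of them without Control rat 8, 9, 10 or 11. The adjusted p of *Col4a1* to *Col4a2* (exact permutation test) was at most 0.0563 without 1 rat. Over these fits the difference of *Col4a1* to *Col4a2* stayed between -0.45 and -0.37. Signs turned in 9 of 43 collagen genes, none with a nominal p value below 0.05. *Col9a1* was -0.01 with limma-voom and -0.03 to 0.17 without 1 rat. *Col9a2* was 0.01 with library size only, 0.04 with limma-voom and -0.05 to 0.05 without 1 rat. *Col14a1* was -0.11 to 0.07 without 1 rat. *Col20a1*, *Col17a1* and *Col28a1* were 0.06, 0.01 and -0.05 with limma-voom, and -0.18 to 0.08, -0.41 to 0.02 and -0.05 to 0.40 without 1 rat. Without 1 rat *Col2a1* was -0.20 to 0.13, *Col6a6* -0.38 to 0.15 and *Col18a1* -0.24 to 0.03. The ratio differences, on the log2 scale and without 1 rat, were -0.59 to 0.02 for *Col8a1* to *Col8a2* (0.06 on the linear scale with all rats), -0.08 to 0.18 for *Col5a1* to *Col5a2*, -0.03 to 0.21 for *Col9a1* to *Col9a2*, -0.19 to 0.13 for *Col11a1* to *Col11a2* and -0.03 to 0.10 for *Col1a1* to *Col3a1*. For single genes and pairs, 941 of the recomputed values kept sign and side of the threshold, 100 lost a call, 15 gained one and 47 turned sign. The causes were not tested. Depth limits *Col6a4*, with 27 to 92 counts per rat, and the other genes below 1 CPM.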
